A study of Mus musculus with 12 samples.

Results

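The 41 genes described here make up the programme of keratinocyte differentiation and cornified envelope formation in mouse skin. They cover suprabasal keratins, early secreted and surface products, envelope precursors, small proline-rich (SPRR) proteins, transglutaminases, proteases and their inhibitors, calmodulin-like proteins, barrier lipid enzymes and corneodesmosome proteins. They were chosen by name, though with earlier results of these data known, and all 41 were found among the 55315 genes of the deposited count table. By what is known of their place in the epidermis, 11 were treated as early (spinous layer), 20 as late (granular layer and cornification) and 5 as SPRR genes, and 5 were given no stage.

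The libraries came from epithelial cells of mouse skin wounds on day 3 after injury, taken from a 0.25 mm ring beside the wound edge. Live cells with Epcam and integrin alpha6 were sorted, cells with CD45, CD31 or CD117 were discarded, and integrin alpha5 (A5) then split the sort. The 4 groups, with 3 libraries each, were RORγt-deficient A5-positive, wild-type A5-positive, RORγt-deficient A5-negative and wild-type A5-negative cells. The study calls A5-positive cells migrating tongue and A5-negative cells wound edge. RORγt-deficient mice are titled as a GFP knock-in, and RORγt is a transcription factor of lymphocytes that make IL-17. Each library pooled 2 or 3 mice, and the sources used here do not state strain, age or sex. All 12 libraries came from wounded skin, so the levels below have no unwounded skin beside them.

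In intact epidermis a basal keratinocyte that leaves the basement membrane stops making Krt5 and Krt14 and turns on Krt1 and Krt10, the keratins of the spinous layer. Granular cells then make loricrin, filaggrin and other precursors, which transglutaminases cross-link under the membrane, and enzymes that lay lipid over this envelope. Keratinocytes that crawl over a wound bed are known to hold this programme back and to make the keratins Krt6a and Krt16 in its place, and SPRR proteins are known as envelope precursors that rise under stress.

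Total counts per library lay between 29259516 and 74474252, so that 3 counts in a library corresponded to 0.0403 to 0.103 CPM (counts scaled to a common library total). Levels of single genes below are CPM scaled by TMM factors, while sums over cell type markers are CPM without these factors. Libraries are named by the number, 1 to 3, in their labels. Itga5, the gene of the sorted integrin, was higher in A5-positive cells by 1.17 ± 0.14 (log2, SE) in RORγt-deficient mice and by 1.01 ± 0.14 in wild type. Basal keratinocyte genes were high in every library: Krt14 ranged from 12245 to 40577 CPM and Krt5 from 9117 to 28400 CPM. The 15 fibroblast markers summed to 17729, 11077 and 18653 CPM in RORγt-deficient A5-positive libraries and to 6504, 9095 and 10106 CPM in wild-type A5-positive ones. They summed to 1959, 788 and 1095 CPM in RORγt-deficient A5-negative libraries and to 2187, 2196 and 1526 CPM in wild-type A5-negative ones. None of the 15 was at 0 in every library. The fibroblast sum was thus higher in A5-positive cells of both genotypes, and its part in the differences described below was not tested.

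The module was present mainly through its early keratins and surface proteins, while the late stage was uneven and a few of its genes, Flg, Flg2, Hrnr and Rptn, were near the limit of detection. Its 41 members took between 0.869% and 2.22% of the counts of a library. Krt10, Krt1, Lypd3, Krt77, Sprr1a, Dmkn and Krt80 together held 80.4% of the counts of all members. A mean level of at least 10 CPM was reached by 29 members and of at least 100 CPM by 15.

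The suprabasal keratin Krt10 had the highest level per kb of exon, a mean of 1677 CPM per kb over the 12 libraries. Sprr1a followed with 1199 CPM per kb, then the urokinase receptor-like surface protein Lypd3 with 928, Krt1 with 659 and the keratin Krt77 with 469. The calmodulin-like Calm4 (468 CPM per kb), Krtdap (462), a secreted early product, and Dmkn (420), another, came next. Asprv1, the protease that processes filaggrin, had 131 CPM per kb, and Elovl4, which elongates very long chain fatty acids for barrier lipids, had 103. Casp14, a protease of cornification, had 32.3 CPM per kb, Tgm1, the membrane-bound transglutaminase, 14.1, and Abca12, the lipid transporter of lamellar granules, 12.4. Of the 20 late members, 3 were above 100 CPM per kb and 5, namely Krt2, Rptn, Flg, Hrnr and Flg2, were below 1.

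Among them were well known genes of the granular layer. Filaggrin (Flg) had 10 counts in all in RORγt-deficient A5-positive libraries and 44 in wild-type A5-positive ones, against 11 in RORγt-deficient A5-negative and 34 in wild-type A5-negative libraries. Of the 44 counts, 36 came from wild-type A5-positive library 3. Flg2, Hrnr and Rptn, all large precursors related to filaggrin, had at most 3, 12 and 37 counts in a library. No library held a count of Sprr3, which over all 509594419 counts allows up to 0.00589 CPM. Loricrin (Lor), the main envelope protein of intact epidermis, was low but measurable in every library, at 2.71 to 6.30 CPM, and the late keratin Krt2 had 0.438 to 4.81 CPM. In the same libraries Krt1 ranged from 1650 to 5021 CPM and Krt10 from 1368 to 6214 CPM.

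**Figure D1:**
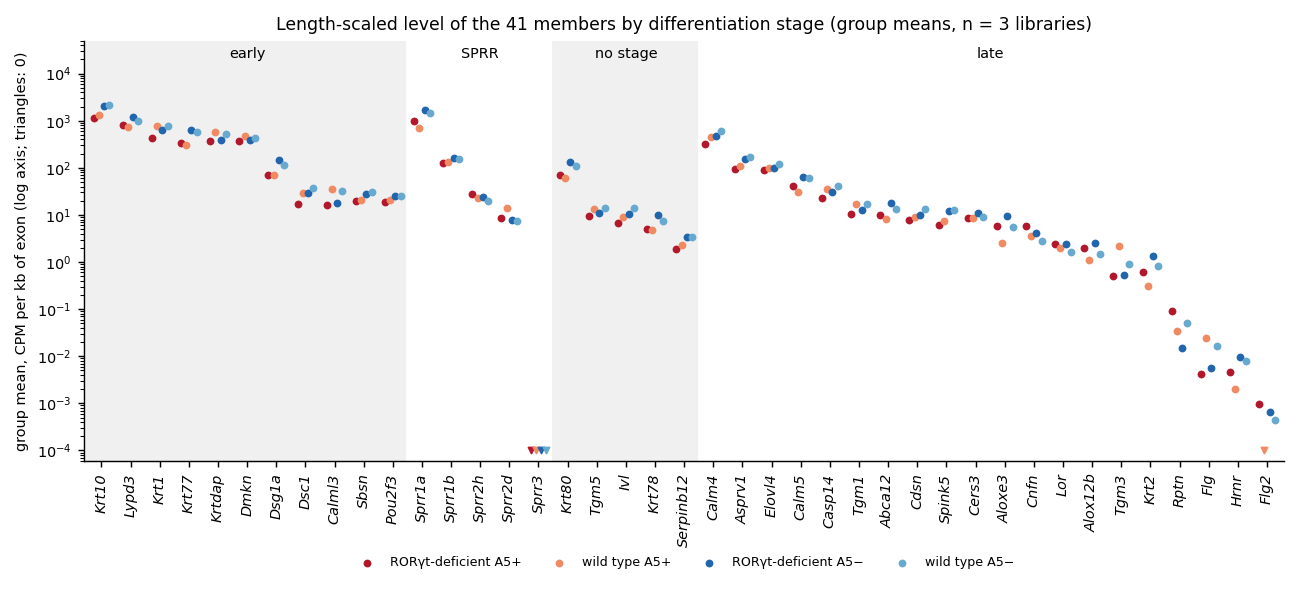
Mean level of each of the 41 members in the 4 groups (3 libraries each), in CPM per kb of exon on a log axis, ordered by stage and by level within a stage. Krt10, Sprr1a and Lypd3 stood highest, and Rptn, Flg, Hrnr and Flg2 lay below 0.1 CPM per kb. Triangles mark a group with no count.

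The epidermal differentiation complex, the cluster of envelope genes on mouse chromosome 3, holds 11 of the 41 members. They lie between 92080271 and 93399442 (GRCm38, GENCODE M21), in the order Lor, Sprr2d, Sprr2h, Sprr1b, Sprr3, Sprr1a, Ivl, Flg2, Flg, Hrnr and Rptn. This stretch holds 54 protein-coding genes, of which 27 passed the filter on low counts. A mean of at least 10 CPM was reached by 8 of the 54, namely Prr9, Sprr2a3, Sprr2h, Sprr1b, Sprr1a, Sprr4, 2310046K23Rik and Ivl, and 7 had no count in any library. Neighbouring genes thus differed widely: Sprr1a averaged 966 CPM over the 12 libraries, and Sprr3, the next protein-coding gene, had no count. The 21 late cornified envelope (Lce) genes of this stretch, which encode precursors of the outermost layers, together had 1.0 to 2.59 CPM in RORγt-deficient A5-positive libraries and 0.525 to 5.05 CPM in wild-type A5-positive ones. Their sum was 1.44 to 2.82 CPM in RORγt-deficient A5-negative libraries and 1.723 to 3.31 CPM in wild-type A5-negative ones, and 4 of the 21 had no count in any library.

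**Figure D2:**
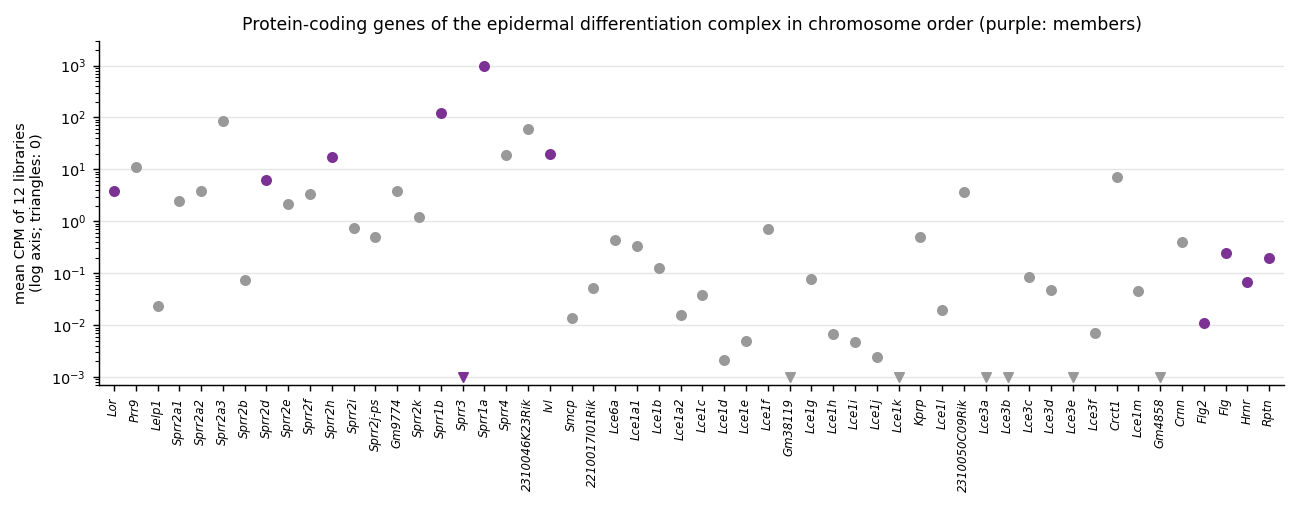
Mean CPM over 12 libraries, on a log axis, of the 54 protein-coding genes of the epidermal differentiation complex, in chromosome order, with members in purple. Sprr1a stood highest, most Lce genes lay below 1 CPM, and triangles mark the 7 genes with no count.

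Promoters of 4 members are shown because they belong to genes with unlike levels or changes: Sprr1a and Sprr1b, near neighbours that differed in level, Lor, which was low, and Krt10, which was the highest. Each run is the 250 bases before the RefSeq start (GRCm38.p6), all on the minus strand. Capitals mark the AP-1 site TGANTCA and the TATA box TATAAA, and no 2 marked motifs overlap. Both motifs were searched on both strands and anywhere in the 250 bases, so a TATA box counted below may also read TTTATA. Sprr1a lies at chr3:92485882-92486131, Sprr1b at chr3:92438780-92439029, Lor at chr3:92083143-92083392 and Krt10 at chr11:99389365-99389614.
Sprr1a: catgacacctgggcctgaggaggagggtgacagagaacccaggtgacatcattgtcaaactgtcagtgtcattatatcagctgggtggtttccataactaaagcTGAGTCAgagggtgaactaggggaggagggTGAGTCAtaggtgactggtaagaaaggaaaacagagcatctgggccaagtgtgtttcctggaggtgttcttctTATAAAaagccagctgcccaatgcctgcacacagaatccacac
Sprr1b: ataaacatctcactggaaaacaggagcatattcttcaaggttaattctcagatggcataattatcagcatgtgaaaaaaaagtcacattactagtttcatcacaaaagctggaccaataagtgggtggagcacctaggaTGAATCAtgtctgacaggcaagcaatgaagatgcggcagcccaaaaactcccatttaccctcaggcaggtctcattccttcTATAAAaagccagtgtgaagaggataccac
Lor: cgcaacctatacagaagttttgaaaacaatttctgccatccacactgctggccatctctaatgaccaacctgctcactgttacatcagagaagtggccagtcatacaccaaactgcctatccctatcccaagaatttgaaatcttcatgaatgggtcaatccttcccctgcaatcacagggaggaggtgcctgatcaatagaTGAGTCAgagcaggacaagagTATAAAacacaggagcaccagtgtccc
Krt10: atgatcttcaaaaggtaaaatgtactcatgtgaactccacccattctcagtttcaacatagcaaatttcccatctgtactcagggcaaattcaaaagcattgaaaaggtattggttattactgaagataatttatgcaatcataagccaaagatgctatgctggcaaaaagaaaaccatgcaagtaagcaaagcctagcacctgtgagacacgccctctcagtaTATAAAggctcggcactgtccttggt

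Sprr1a carried 2 AP-1 matches, Sprr1b and Lor carried 1 each, and Krt10 carried none. All 4 carried a TATA box, which began 26 to 43 bases before the start. Of the 41 members, 33 were matched to a RefSeq promoter. An AP-1 match was found in 13 of these 33 (39.4%), against 7.82% of 27025 genes with a promoter of the same length, and a TATA box in 14 of 33 (42.4%), against 14.3% of those genes. Counted over all 32851 promoters, the shares were 6.75% and 12.4%. Most of these matches came from the 11 members in the chromosome 3 cluster, which held 9 of the 13 with an AP-1 match and 10 of the 14 with a TATA box. The shares of the members thus rest mainly on that cluster. The letters do not sort the members by level, since the promoters of Sprr1a, at 1199 CPM per kb, and of Lor, at 2.13 CPM per kb, both had each motif. Flg, Flg2 and Rptn, with a few counts at most in many libraries, also had an AP-1 match.

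The first comparison asks how the programme differed between A5-positive cells, the migrating fraction, and A5-negative cells, the wound edge, within a genotype. In the fit that takes account of the library number, A5-positive cells of both genotypes had less Krt10, Krt77, Krt80 and Krt2. They also had less Lypd3, Sprr1a, Ivl and Calm5, and less of the protease, inhibitor and lipid genes Asprv1, Spink5 and Abca12. No member was higher in both genotypes. None of the genes lower in both kept its call in both genotypes when each library in turn was left out. In edgeR without the library number in the fit, 1 member at most passed the threshold (adjusted p of 0.05) in a genotype. In RORγt-deficient mice 0 of 38 tested members passed, beside 5.52% of all 16677 tested genes (4.56% higher and 0.965% lower). An unadjusted p below 0.05 was found for 9 members, beside 3642 of all 16677 genes. DESeq2 called 4 members, beside 1719 genes. In wild type 1 of 38 passed, beside 3.45% of all tested genes (3.12% higher and 0.33% lower). Here 8 members had an unadjusted p below 0.05, beside 3420 of all 16677 genes, and DESeq2 called 3 members, beside 1457 genes.

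Libraries with the same number resembled each other across groups, and the number was therefore also entered as a block, called the paired fit below. In the paired fit 16 of 38 members were lower and 0 higher in A5-positive cells of RORγt-deficient mice, where 7.54% of all tested genes were lower and 10.1% higher. In wild type 13 were lower and 1, Tgm3, was higher, where 5.59% of all tested genes were lower and 8.76% higher. The lower members numbered 3 when RORγt-deficient A5-positive library 3 was left out, 5 without RORγt-deficient A5-negative library 1, and 11 to 14 without any other library of that comparison. In wild type they numbered 2 without A5-positive library 2, 3 without A5-negative library 3, 5 when library 1 of either fraction was left out, 7 after omission of A5-negative library 2 and 19 after omission of A5-positive library 3. The size of the count thus rested on few libraries, and the values per library are given below for the members that carry it. In bulk RNA of sorted cells, fewer differentiating cells and less RNA of these genes per cell cannot be told apart.

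A set of 11 members was lower in both genotypes: Abca12, Asprv1, Calm5, Ivl, Krt10, Krt2, Krt77, Krt80, Lypd3, Spink5 and Sprr1a. They made up 68.8% of the 16 in RORγt-deficient mice and 84.6% of the 13 in wild type. The share of all tested genes lower in both genotypes was not counted, so this overlap has no background beside it. These comparisons share no library, but they came from the same fit, with a common estimate of the spread and common terms for the library number. Dsc1, Dsg1a, Krt78, Pou2f3 and Serpinb12 passed in RORγt-deficient mice and not in wild type, and Aloxe3 and Sbsn in wild type and not in RORγt-deficient mice. The test of the difference itself called no member.

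Without any test, A5-positive cells were lower than A5-negative cells of the same genotype and number in all 6 pairs for 19 of the 38 members, a count taken after the values had been seen. Over all tested genes this held for 15.5%. The 19 were 7 of 11 early, 7 of 18 late, 1 of 4 SPRR and 4 of 5 unstaged members. No member was higher in all 6 pairs, beside 18.4% of all tested genes.

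Of the 6 suprabasal keratins, 5 in RORγt-deficient mice and 4 in wild type passed as lower in the paired fit. Krt10, on chromosome 11 at 99385254 to 99389364, had 1593, 2977 and 2546 CPM in RORγt-deficient A5-positive libraries 1 to 3, against 3773, 4038 and 5420 CPM in RORγt-deficient A5-negative ones. It had 1368, 2407 and 4439 CPM in wild-type A5-positive libraries, against 3256, 4506 and 6214 CPM in wild-type A5-negative ones. All RORγt-deficient A5-positive libraries lay below the A5-negative ones, while in wild type the ranges overlapped and only the pairs of equal number were ordered alike. The log2 change was -0.89 ± 0.39 (SE, adjusted p = 0.203) in RORγt-deficient mice and -0.77 ± 0.38 (adjusted p = 0.28) in wild type. In the paired fit Krt10 fell by 0.92 ± 0.22 (adjusted p = 0.0162) and by 0.85 ± 0.22 (adjusted p = 0.0269). These calls ended without some libraries: the adjusted p was 0.0895 without RORγt-deficient A5-negative library 1, 0.0719 and 0.0879 without RORγt-deficient A5-positive library 1 or 3, and 0.0639 to 0.135 without any wild-type library but A5-positive library 3.

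Krt77, Krt80 and Krt2 went the same way in both genotypes, and Krt78 passed in RORγt-deficient mice. Krt80, a keratin of differentiating cells, had 388, 537 and 442 CPM in RORγt-deficient A5-positive libraries, against 792, 901 and 857 CPM in A5-negative ones. In wild type Krt80 had 209, 406 and 528 CPM in A5-positive libraries, against 598, 728 and 825 CPM in A5-negative ones. Its groups did not overlap in either genotype. The paired changes were -0.91 ± 0.19 (adjusted p = 0.0106) and -0.96 ± 0.20 (adjusted p = 0.011). They missed the threshold without RORγt-deficient A5-positive library 3 (0.0646) or A5-negative library 1 (0.0633), as in wild type when A5-positive library 2 (0.056) or A5-negative library 3 (0.0636) was omitted. Krt77 changed by -0.95 ± 0.24 in RORγt-deficient mice and -1.04 ± 0.24 in wild type, and Krt2 by -1.04 ± 0.32 and -1.35 ± 0.33. Krt78 changed by -0.99 ± 0.23 (adjusted p = 0.0143) in RORγt-deficient mice, against -0.72 ± 0.23 (adjusted p = 0.0562) in wild type. None of these 3 keratins kept its calls without every library.

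Krt1, the partner of Krt10 in the same filaments, behaved differently. It had 1650, 2210 and 1798 CPM in RORγt-deficient A5-positive libraries, against 2588, 2482 and 3538 CPM in A5-negative ones. In wild type it had 2374, 2870 and 5021 CPM in A5-positive libraries, against 2152, 4089 and 4151 CPM in A5-negative ones. The RORγt-deficient groups did not overlap and the wild-type groups did. The paired change was -0.59 ± 0.21 (adjusted p = 0.0776) in RORγt-deficient mice and -0.03 ± 0.21 (adjusted p = 0.942) in wild type, and neither passed. The difference between these changes was -0.56 ± 0.30 (adjusted p = 0.933).

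The ratio of Krt1 to Krt10 counts, looked at after the values had been seen, followed from this. It was 1.04, 0.743 and 0.706 in RORγt-deficient A5-positive libraries, against 0.686, 0.615 and 0.653 in A5-negative ones. In wild type it was 1.74, 1.19 and 1.13 in A5-positive libraries, against 0.661, 0.907 and 0.668 in A5-negative ones. A5-positive libraries had the higher ratio in all 6 pairs of equal number, and no A5-positive library of a genotype fell within the range of its A5-negative libraries. Krt10 as a percentage of the counts of Krt14, the basal keratin, was 5.91%, 15.3% and 15.2% in RORγt-deficient A5-positive libraries, against 22.6%, 26.1% and 44.3% in A5-negative ones. In wild type this percentage was 3.37%, 7.75% and 18.8% in A5-positive libraries, against 17.7%, 22.5% and 44.9% in A5-negative ones. It was lower in A5-positive libraries in every pair, and library 3 of each group had more than library 1.

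**Figure D3:**
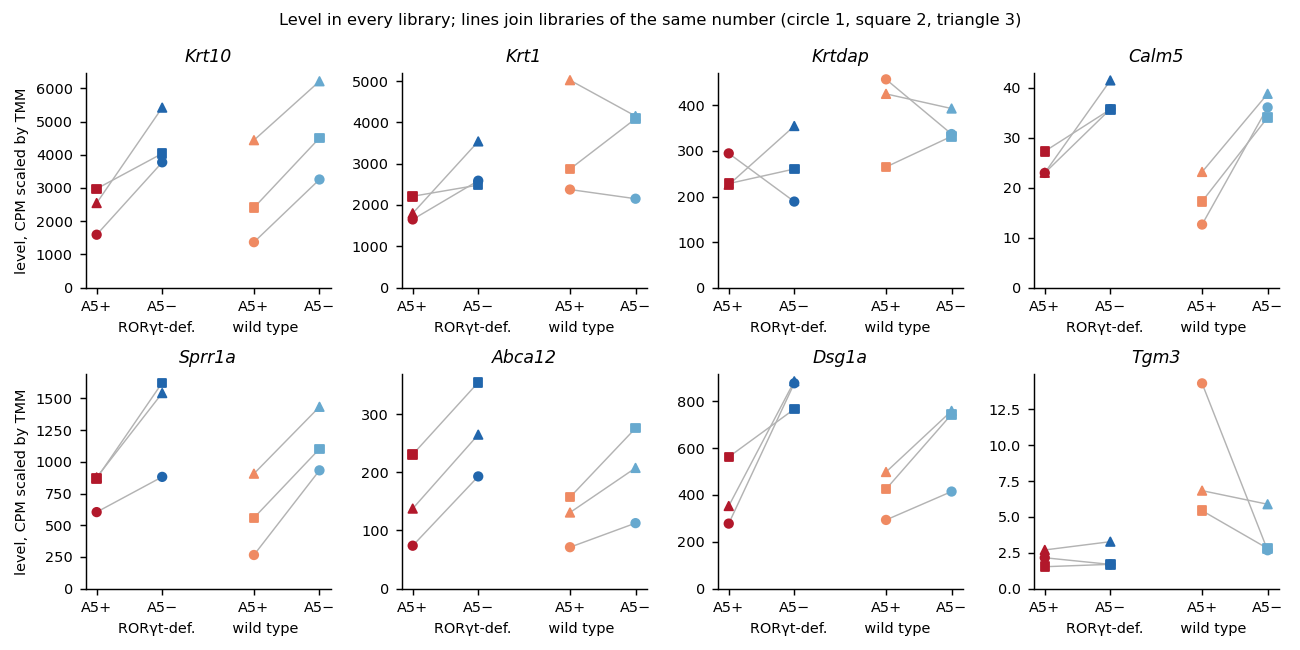
Level in CPM (axis from 0) of 8 members in each of the 12 libraries, A5-positive beside A5-negative within a genotype, with lines joining libraries of equal number. Krt10, Calm5, Sprr1a, Abca12 and Dsg1a were lower in A5-positive libraries in all 6 pairs, while Krt1, Krtdap and Tgm3 were not.

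Early secreted and surface products did not move together. Lypd3 changed in the paired fit by -0.54 ± 0.13 (adjusted p = 0.0156) in RORγt-deficient mice and by -0.44 ± 0.13 (adjusted p = 0.0418) in wild type. Without RORγt-deficient A5-positive library 3 the adjusted p of Lypd3 was 0.0904, and in wild type leaving out any library but A5-positive library 3 raised it to 0.0684 to 0.169. Sbsn (suprabasin) changed by -0.62 ± 0.15 (adjusted p = 0.0246) in wild type and by -0.44 ± 0.15 (adjusted p = 0.068) in RORγt-deficient mice. Its wild-type call ended without A5-positive library 1 or 2 or A5-negative library 1 or 3 (0.064 to 0.139). Krtdap, a secreted protein of early differentiation, showed no common direction, with 295, 228 and 226 CPM in RORγt-deficient A5-positive libraries, against 189, 260 and 355 CPM in A5-negative ones. In wild type Krtdap had 457, 265 and 425 CPM in A5-positive libraries, against 337, 332 and 393 CPM in A5-negative ones. Its paired changes were -0.09 ± 0.22 (adjusted p = 0.817) and 0.09 ± 0.21 (adjusted p = 0.8). Dmkn (dermokine), which lies beside Krtdap and Sbsn on chromosome 7, also had changes near 0 (-0.08 ± 0.16 and 0.13 ± 0.16). The transcription factor Pou2f3 changed by -0.46 ± 0.13 (adjusted p = 0.0292) in RORγt-deficient mice and by -0.31 ± 0.13 (adjusted p = 0.119) in wild type. The RORγt-deficient call of Pou2f3 ended without A5-positive library 3 or A5-negative library 1 or 3 (0.061 to 0.145).

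Corneodesmosome genes encode the adhesion proteins that hold spinous and cornified cells together. Dsg1a (desmoglein 1) had 278, 562 and 353 CPM in RORγt-deficient A5-positive libraries, against 877, 767 and 886 CPM in A5-negative ones. In wild type it had 293, 425 and 498 CPM in A5-positive libraries, against 415, 745 and 759 CPM in A5-negative ones. The RORγt-deficient groups were apart, and wild-type A5-negative library 1 lay below 2 of the A5-positive libraries. Paired changes were -1.16 ± 0.22 (adjusted p = 0.00554) in RORγt-deficient mice and -0.64 ± 0.21 (adjusted p = 0.0665) in wild type. Dsc1 (desmocollin 1) had 72.3, 77.5 and 105 CPM in RORγt-deficient A5-positive libraries, against 117, 127 and 190 CPM in A5-negative ones, and changed by -0.75 ± 0.12 (adjusted p = 0.00193). In wild type Dsc1 had 100, 127 and 222 CPM in A5-positive libraries, against 132, 178 and 247 CPM in A5-negative ones, and changed by -0.34 ± 0.12 (adjusted p = 0.0725). The RORγt-deficient calls of Dsg1a and Dsc1 held with any single library left out. Dsg1a has near-identical neighbours among the mouse desmoglein 1 genes, so its reads may have been shared with them. Cdsn (corneodesmosin) passed in neither genotype, with paired changes of -0.66 ± 0.52 and -0.98 ± 0.53.

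Of the 5 barrier lipid genes, Abca12 carried the clearest change. It had 73.7, 231 and 137 CPM in RORγt-deficient A5-positive libraries, against 193, 355 and 265 CPM in A5-negative ones. In wild type it had 71.1, 157 and 131 CPM in A5-positive libraries, against 112, 276 and 207 CPM in A5-negative ones. The ranges overlapped in both genotypes, because library 2 of each group was the highest and library 1 the lowest. Within equal numbers A5-positive cells were lower in every pair, and the paired changes were -0.98 ± 0.13 (adjusted p = 0.000912) in RORγt-deficient mice and -0.71 ± 0.13 (adjusted p = 0.00799) in wild type. The RORγt-deficient call held without any single library, and the wild-type one reached 0.0541 without A5-positive library 2 and 0.0535 without A5-negative library 3. Aloxe3, a lipoxygenase that acts on barrier ceramides, changed by -1.25 ± 0.34 (adjusted p = 0.0356) in wild type and by -0.96 ± 0.33 (adjusted p = 0.0701) in RORγt-deficient mice. Its wild-type call ended without A5-positive library 1 or 2 or A5-negative library 1 or 3 (0.117 to 0.173). Alox12b, Cers3 and Elovl4 passed in neither genotype.

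The calmodulin-like gene Calm5 was the only member past the threshold in edgeR without the block, which it passed in wild type. It had 12.6, 17.2 and 23.1 CPM in wild-type A5-positive libraries, against 36.0, 34 and 38.7 CPM in wild-type A5-negative ones. In RORγt-deficient mice it had 22.9, 27.3 and 23.0 CPM in A5-positive libraries, against 35.7, 35.6 and 41.4 CPM in A5-negative ones. No A5-positive library of either genotype reached an A5-negative one. Its change was -1.04 ± 0.19 (adjusted p = 0.0123) in wild type, or -1.07 ± 0.16 (adjusted p = 0.00322) in the paired fit, which held with any single library left out. In RORγt-deficient mice it was -0.62 ± 0.19 (adjusted p = 0.0837), or -0.62 ± 0.16 (adjusted p = 0.0254) in the paired fit. The RORγt-deficient call was lost without A5-positive library 1 or 3 or A5-negative library 1 or 3 (0.0633 to 0.127). Calm4, its near neighbour on chromosome 13, changed by -0.48 ± 0.16 in each genotype (adjusted p = 0.0571 and 0.0663). Calml3 showed no common direction (-0.19 ± 0.37 and 0.14 ± 0.37).

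Proteases and inhibitors of cornification were lower or not called in the paired fit, which gave the changes that follow. Asprv1 changed by -0.64 ± 0.15 (adjusted p = 0.0177) in RORγt-deficient mice and by -0.72 ± 0.15 (adjusted p = 0.0136) in wild type. Spink5, which restrains the proteases that shed the cornified layer, changed by -1.0 ± 0.25 (adjusted p = 0.0216) and by -0.93 ± 0.25 (adjusted p = 0.0357). The intracellular protease inhibitor Serpinb12 changed by -0.82 ± 0.18 (adjusted p = 0.0133) in RORγt-deficient mice and by -0.59 ± 0.18 (adjusted p = 0.0527) in wild type. Casp14 changed by -0.40 ± 0.17 (adjusted p = 0.13) and by -0.24 ± 0.17 (adjusted p = 0.363). Each of the calls of Asprv1, Spink5 and Serpinb12 was lost without at least 1 library. In RORγt-deficient mice the adjusted p without A5-positive library 3 was 0.0961 for Asprv1, 0.0813 for Spink5 and 0.0767 for Serpinb12. In wild type the adjusted p without A5-positive library 1 was 0.0774 for Asprv1 and 0.142 for Spink5.

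Envelope precursors split. Involucrin (Ivl), an early scaffold of the envelope, had 10.9, 7.79 and 20.7 CPM in RORγt-deficient A5-positive libraries, against 14.6, 20.4 and 26 CPM in A5-negative ones. In wild type it had 12.6, 13.4 and 25.2 CPM in A5-positive libraries, against 20.7, 26.6 and 34.3 CPM in A5-negative ones. The ranges overlapped in both genotypes, though every pair of equal number was lower in A5-positive cells. The paired changes were -0.69 ± 0.19 (adjusted p = 0.0341) and -0.72 ± 0.19 (adjusted p = 0.0316). Both calls rested on most of the libraries: leaving out any RORγt-deficient library but A5-negative library 3 gave 0.0516 to 0.0913, and any wild-type library but A5-positive library 3 gave 0.0582 to 0.107.

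Loricrin did not go with Ivl. Lor had 4.41, 4.75 and 3.95 CPM in RORγt-deficient A5-positive libraries, against 3.77, 6.30 and 2.98 CPM in A5-negative ones, and 3.08, 3.51 and 4.04 CPM in wild-type A5-positive libraries, against 2.80, 3.16 and 2.71 CPM in A5-negative ones. Its paired changes were 0.04 ± 0.25 (adjusted p = 0.926) and 0.30 ± 0.25 (adjusted p = 0.443). Flg, at a few counts per library, changed by 0.17 ± 1.02 (adjusted p = 0.927) and by 0.30 ± 0.90 (adjusted p = 0.85), with an SE too wide to tell a rise from a fall. Cnfn (cornifelin) changed by 0.40 ± 0.49 and 0.33 ± 0.50, and Rptn by 3.24 ± 1.61 (adjusted p = 0.186) and -1.1 ± 1.49 (adjusted p = 0.656).

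Transglutaminases showed no shared fall. Tgm1 had 30.5, 23.3 and 43.2 CPM in RORγt-deficient A5-positive libraries, against 24.7, 43.5 and 51.1 CPM in A5-negative ones. In wild type Tgm1 had 32, 51.5 and 74.5 CPM in A5-positive libraries, against 36.9, 59.4 and 62.9 CPM in A5-negative ones. Its ranges overlapped, and its paired changes were -0.24 ± 0.20 (adjusted p = 0.435) and -0.05 ± 0.20 (adjusted p = 0.883). Tgm5 likewise changed little (-0.11 ± 0.17 and -0.10 ± 0.17). Tgm3, the transglutaminase of the granular layer and hair, had 14.3, 5.43 and 6.83 CPM in wild-type A5-positive libraries, against 2.67, 2.80 and 5.88 CPM in wild-type A5-negative ones. It rose by 1.28 ± 0.37 (adjusted p = 0.0411) in the paired fit of wild type. That call rested on several libraries, since the adjusted p was 0.197 without A5-positive library 1, with a change of 0.67, and 0.0799 to 0.176 without any other library but A5-positive library 3. In RORγt-deficient mice Tgm3 had 2.15, 1.52 and 2.69 CPM in A5-positive libraries, against 1.68, 1.69 and 3.27 CPM in A5-negative ones (-0.04 ± 0.37, adjusted p = 0.951).

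Of the 4 tested SPRR members, Sprr1a was called in the paired fit. Sprr1a had 603, 869 and 877 CPM in RORγt-deficient A5-positive libraries, against 881, 1624 and 1542 CPM in A5-negative ones. In wild type Sprr1a had 265, 558 and 906 CPM in A5-positive libraries, against 933, 1102 and 1434 CPM in A5-negative ones. In both genotypes every A5-positive library was below every A5-negative one. The paired changes were -0.75 ± 0.21 (adjusted p = 0.0312) and -1.12 ± 0.21 (adjusted p = 0.00789). The wild-type call held without any single library, and the RORγt-deficient one was lost without A5-positive library 1, 2 or 3 or A5-negative library 1 or 2 (0.0559 to 0.143).

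Sprr1b, its closest relative, had 86.2, 102 and 135 CPM in RORγt-deficient A5-positive libraries, against 73.0, 129 and 208 CPM in A5-negative ones. In wild type Sprr1b had 74.2, 80.3 and 169 CPM in A5-positive libraries, against 88.9, 114 and 181 CPM in A5-negative ones. Its groups overlapped, and its paired changes were -0.24 ± 0.15 (adjusted p = 0.301) and -0.28 ± 0.15 (adjusted p = 0.241). Sprr2d changed by 0.12 ± 0.35 (adjusted p = 0.848) in RORγt-deficient mice and by 1.17 ± 0.36 (adjusted p = 0.051) in wild type, and Sprr2h by 0.23 ± 0.25 and 0.36 ± 0.25. Of the 10 other SPRR genes tested, Sprr2a2 and Sprr2a3 rose in both genotypes in the paired fit and none fell. Sprr2a3 rose by 1.74 ± 0.31 (adjusted p = 0.0039) in RORγt-deficient mice and by 1.97 ± 0.30 (adjusted p = 0.00322) in wild type. Sprr2a2 rose by 1.63 ± 0.48 (adjusted p = 0.0387) and by 1.73 ± 0.46 (adjusted p = 0.0302). Sprr2 genes are near-identical copies, and the sources used here do not state how reads that match several of them were counted, so these values are uncertain gene by gene.

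**Figure D4:**
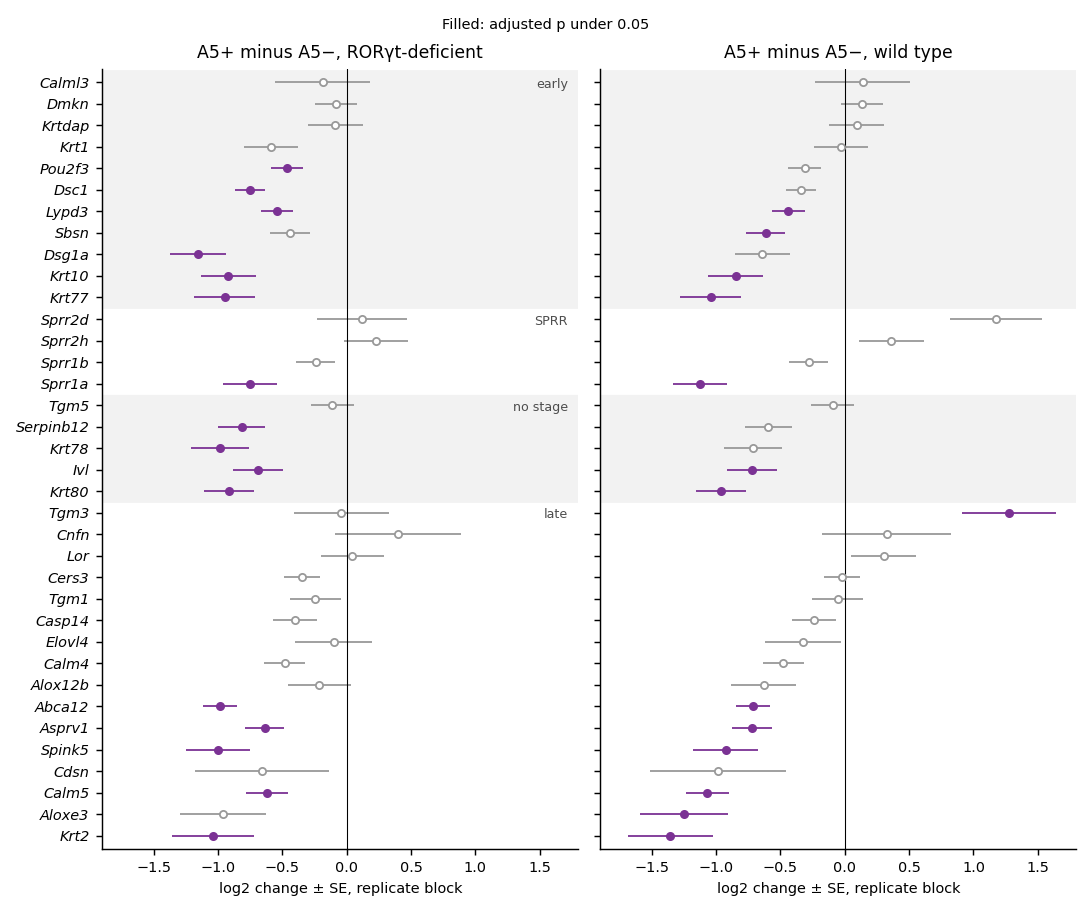
Log2 change ± SE between A5-positive and A5-negative cells in the paired fit, RORγt-deficient on the left and wild type on the right, for the tested members other than Flg and Rptn, grouped by stage. Filled points passed an adjusted p of 0.05: 16 lower in RORγt-deficient mice, and 13 lower and Tgm3 higher in wild type.

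Early and late members were then set side by side, with the medians of all libraries taken from the fit without the block. In RORγt-deficient mice the median log2 change between A5-positive and A5-negative cells was -0.56 over 11 early members, -0.35 over 18 tested late members, -0.08 over 4 SPRR members and -0.81 over the 5 unstaged members. In wild type the medians were -0.31 for early, -0.41 for late, -0.02 for SPRR and -0.64 for unstaged members. The wild-type late median rested on single libraries, at -1.1 without A5-positive library 3, -0.06 without A5-positive library 1, -0.19 without A5-positive library 2 and -0.12 without A5-negative library 3. The wild-type early median was -0.60 without A5-positive library 3 and -0.51 without A5-negative library 1. In RORγt-deficient mice the late median was -0.63 without A5-negative library 1, -0.57 without A5-positive library 3 and -0.20 without A5-negative library 3. The SPRR medians changed sign with the library left out. The median over all tested genes was 0.00 in RORγt-deficient mice and 0.03 in wild type. In the paired fit 6 of 11 early and 5 of 18 late members were lower in RORγt-deficient mice, and 4 of 11 early and 6 of 18 late members in wild type. Neither stage had the lower median in both genotypes. Within the late stage the lower members were Abca12, Asprv1, Calm5, Krt2 and Spink5 in both genotypes, with Aloxe3 in wild type.

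A score per library, the mean log2 CPM of a stage with each gene centred on its mean over the 12 libraries, showed how the stages varied. The early score was -0.50, -0.32 and -0.31 in RORγt-deficient A5-positive libraries 1 to 3 and -0.40, -0.27 and 0.44 in wild-type A5-positive ones. It was -0.07, 0.10 and 0.48 in RORγt-deficient A5-negative libraries and 0.07, 0.21 and 0.57 in wild-type A5-negative ones. The late score was -0.45, -0.21 and 0.18 in RORγt-deficient A5-positive libraries and -0.95, -0.25 and 0.59 in wild-type A5-positive ones. It was -0.43, 0.30 and 0.57 in RORγt-deficient A5-negative libraries and -0.22, 0.32 and 0.56 in wild-type A5-negative ones. In each group library 1 had the lowest late score and library 3 the highest. The range within every group was wider than the difference between the mean late scores of the fractions. These means were -0.16 in A5-positive and 0.15 in A5-negative libraries of RORγt-deficient mice, and -0.21 and 0.22 in wild type.

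The difference of early minus late score was -0.05, -0.11 and -0.49 in RORγt-deficient A5-positive libraries and 0.56, -0.02 and -0.15 in wild-type A5-positive ones. It was 0.36, -0.20 and -0.09 in RORγt-deficient A5-negative libraries and 0.29, -0.11 and 0.01 in wild-type A5-negative ones. The 4 groups overlapped, with means of -0.22 ± 0.24 and 0.13 ± 0.37 (SD, n = 3) in RORγt-deficient and wild-type A5-positive cells and 0.02 ± 0.30 and 0.06 ± 0.20 in RORγt-deficient and wild-type A5-negative cells. Within equal numbers, the difference of RORγt-deficient minus wild-type A5-positive libraries was -0.61, -0.10 and -0.35, below 0 in all 3 pairs. That of A5-positive minus A5-negative libraries was -0.42, 0.09 and -0.40 in RORγt-deficient mice and 0.27, 0.09 and -0.16 in wild type, and that of RORγt-deficient minus wild-type A5-negative libraries was 0.08, -0.09 and -0.11. The early score itself was lower in A5-positive than in A5-negative libraries in 6 of 6 pairs, by 0.13 to 0.80, and the late score in 5 of 6. The value of -0.49 in RORγt-deficient A5-positive library 3 was -0.09 when medians replaced means, and the cause was not tested.

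**Figure D5:**
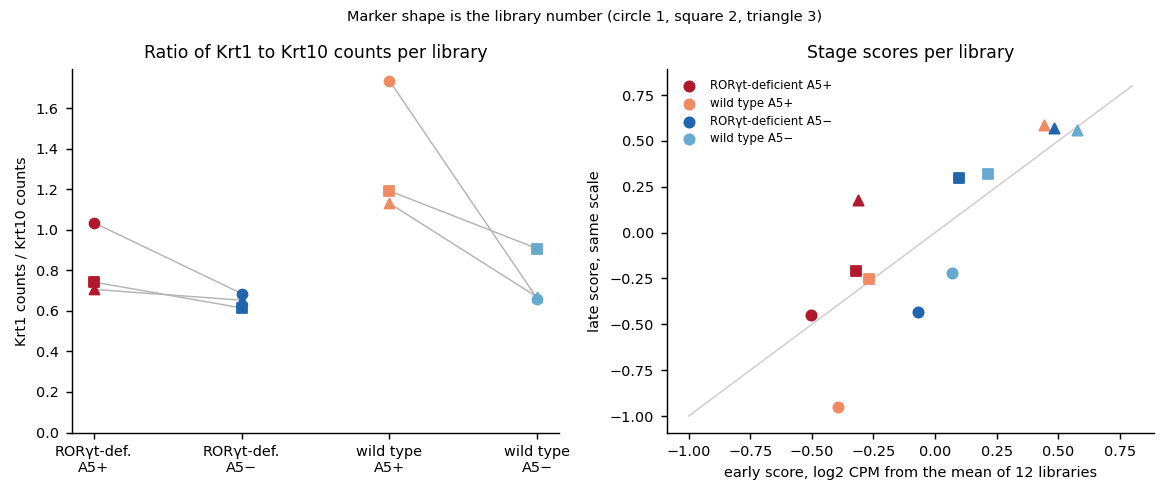
Left, the ratio of Krt1 to Krt10 counts in every library, with lines joining A5-positive and A5-negative libraries of equal number. Right, the early score against the late score of the 12 libraries (log2), with the line of equal scores; A5-positive libraries had the higher Krt1 to Krt10 ratio in all 6 pairs, and both scores were highest in libraries numbered 3 within a group.

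The second comparison asks how RORγt deficiency changed the programme within a sorted fraction. In A5-positive cells 0 of 38 members passed without the block, beside 0.006% of all tested genes. An unadjusted p below 0.05 was found for 7 members, beside 2497 of all tested genes. DESeq2 called 1 member, beside 477 genes. The paired fit called 3, beside 4.02% of all tested genes (2.26% higher and 1.76% lower). Dsc1 had 72.3, 77.5 and 105 CPM in RORγt-deficient A5-positive libraries, against 100, 127 and 222 CPM in wild-type A5-positive ones. Its ranges overlapped, and it changed by -0.76 ± 0.12 (adjusted p = 0.0208) in the paired fit. Tgm3, with 2.15, 1.52 and 2.69 CPM in RORγt-deficient against 14.3, 5.43 and 6.83 CPM in wild-type A5-positive libraries, did not overlap and changed by -2.09 ± 0.37 (adjusted p = 0.0327). Alox12b, a lipoxygenase of barrier lipids, had 1.14, 3.75 and 9.93 CPM in RORγt-deficient against 0.368, 2.16 and 5.72 CPM in wild-type A5-positive libraries and changed by 1.01 ± 0.25 (adjusted p = 0.0496). None of these 3 calls survived all omissions. The adjusted p was 0.0527 to 0.0935 for Dsc1 without RORγt-deficient library 2 or 3 or wild-type library 1 or 2, and 0.0707 to 0.122 for Tgm3 without any library but wild-type library 3. For Alox12b it was 0.0656 to 0.195 without any library of the comparison.

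Other stage markers in A5-positive cells did not pass in either fit, and their changes are given from the paired fit. Krt1 was lower in RORγt-deficient libraries in 3 of 3 pairs, with a paired change of -0.79 ± 0.21 (adjusted p = 0.0616). Krt10 changed by -0.10 ± 0.22 (adjusted p = 0.813), Krtdap by -0.59 ± 0.22 (adjusted p = 0.128) and Ivl by -0.39 ± 0.19 (adjusted p = 0.239). Tgm1 changed by -0.63 ± 0.20 (adjusted p = 0.0907), Lor by 0.30 ± 0.25 (adjusted p = 0.5), Flg by -1.70 ± 1.02 (adjusted p = 0.332) and Sprr1b by 0.08 ± 0.15 (adjusted p = 0.788). Without the block the median change was -0.21 over early, -0.06 over late and 0.14 over SPRR members, beside 0.00 over all tested genes. The fibroblast sum was also higher in RORγt-deficient than in wild-type A5-positive libraries, and its part in these values was not tested.

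In A5-negative cells no member passed in either edgeR fit, beside 0.006% of all tested genes in each. Without the block an unadjusted p below 0.05 was found for 0 members, beside 849 of all tested genes. With the block it was found for 14 members, beside 2522 genes. DESeq2 called 0 members without the block, beside 21 genes, and 1 with it, beside 653 genes. Without the block the early median change was -0.11, the late -0.10 and the SPRR median 0.16. The changes of single genes that follow are from the paired fit. Krt1 changed by -0.23 ± 0.21 (adjusted p = 0.64), Krt10 by -0.03 ± 0.21 (adjusted p = 0.966), Krtdap by -0.41 ± 0.21 (adjusted p = 0.391) and Ivl by -0.43 ± 0.19 (adjusted p = 0.324). Lor changed by 0.55 ± 0.25 (adjusted p = 0.327), Flg by -1.57 ± 0.96 (adjusted p = 0.463), Tgm1 by -0.44 ± 0.20 (adjusted p = 0.327) and Sprr1b by 0.04 ± 0.15 (adjusted p = 0.929).

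The third comparison asks whether the difference between the fractions depended on the genotype. The interaction called no member in either edgeR fit (0% of all tested genes). Without the block 0 members had an unadjusted p below 0.05, beside 458 of all tested genes. With the block 2 members did, beside 910 genes. DESeq2 called 0 members in both, beside 8 genes without the block and 25 with it. The paired interaction was -1.32 ± 0.52 (adjusted p = 0.914) for Tgm3, -0.51 ± 0.30 (adjusted p = 0.938) for Dsg1a, -0.41 ± 0.16 (adjusted p = 0.914) for Dsc1 and 0.45 ± 0.23 (adjusted p = 0.933) for Calm5. Members that passed in 1 genotype alone were thus not shown to differ between genotypes. For the other stage markers it was -0.07 ± 0.30 for Krt10, -0.18 ± 0.30 for Krtdap, -0.26 ± 0.35 for Lor, 0.04 ± 0.27 for Ivl, -0.19 ± 0.28 for Tgm1 and 0.04 ± 0.22 for Sprr1b, and Flg (-0.13 ± 1.55) was too sparse to tell.

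Genes that act with the module were read in the same comparisons, and most of those that passed in the A5 comparison were lower in A5-positive cells. Among 17 regulators of differentiation, 9 were lower in A5-positive cells of RORγt-deficient mice in the paired fit (2 without the block) and 8 in wild type (0 without the block), and none was higher. The shares of all tested genes lower in that fit, 7.54% in RORγt-deficient mice and 5.59% in wild type, stand beside the counts of this and the next lists. Grhl3, a transcription factor of barrier formation, changed by -0.96 ± 0.14 (adjusted p = 0.00121) in RORγt-deficient mice and by -0.96 ± 0.14 (adjusted p = 0.00225) in wild type. Zfp750, which represses basal genes during differentiation, changed by -1.07 ± 0.12 (adjusted p = 0.000225) in RORγt-deficient mice, and Grhl1 by -0.85 ± 0.11 (adjusted p = 0.000717) there and by -0.55 ± 0.11 (adjusted p = 0.0107) in wild type. Ehf, an ETS factor of epithelial differentiation, changed by -0.65 ± 0.13 (adjusted p = 0.0104) in wild type. Zfp750 also passed as lower in wild type, and Ehf in RORγt-deficient mice.

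Of 12 envelope scaffold and desmosome genes, 5 were lower in RORγt-deficient mice (4 without the block), and in wild type 2 were lower and 1 higher. Scel (sciellin) changed by -0.75 ± 0.13 (adjusted p = 0.00307) and by -0.61 ± 0.13 (adjusted p = 0.0121), and the plakin Ppl, which anchors the envelope to keratin, by -0.88 ± 0.15 (adjusted p = 0.00341) and by -0.51 ± 0.15 (adjusted p = 0.0466). Envoplakin (Evpl) changed by -0.91 ± 0.15 (adjusted p = 0.00233) in RORγt-deficient mice. Dsg3, the desmoglein of basal cells, was the gene that rose in wild type, by 0.78 ± 0.20 (adjusted p = 0.0259).

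Of 24 further barrier lipid genes, 6 were lower in RORγt-deficient mice (1 without the block) and 4 in wild type (0 without the block). The lipase Lipm changed by -0.90 ± 0.13 (adjusted p = 0.00122) and by -0.70 ± 0.13 (adjusted p = 0.00725), the ceramidase Acer1 by -0.89 ± 0.19 and by -0.87 ± 0.19, and the glucosylceramide synthase Ugcg by -0.65 ± 0.15 and by -0.63 ± 0.15. Of 13 processing proteases and deiminases, 5 were lower in RORγt-deficient mice, and in wild type 3 were lower and 1 higher, all in the paired fit alone. The membrane-bound protease Prss8 changed by -0.66 ± 0.13 (adjusted p = 0.00605) and by -0.69 ± 0.13 (adjusted p = 0.00664), and the kallikrein Klk7, which sheds cornified cells, by -0.81 ± 0.21 and by -1.12 ± 0.22. St14 (matriptase), which activates Prss8, changed by -0.45 ± 0.11 (adjusted p = 0.0165) in RORγt-deficient mice. Blmh, which degrades filaggrin peptides, rose by 0.69 ± 0.14 (adjusted p = 0.0105) in wild type. None of the 3 tested Lce genes passed in any comparison in either edgeR fit.

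Between genotypes in A5-positive cells, the paired fit called 1 of 12 scaffold and desmosome genes, 1 of 24 lipid genes and 2 of 13 proteases, all lower in RORγt-deficient libraries, beside 1.76% of all tested genes. These were the desmosomal plaque protein Pkp1 (-0.48 ± 0.11), Pnpla1 (-0.71 ± 0.15), which makes acylceramides, Blmh (-0.73 ± 0.14) and the kallikrein Klk8 (-0.66 ± 0.15). None of the 17 regulators passed, and in A5-negative cells no gene of these lists passed in either fit.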

How the data were processed

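RNA-seq was run on 12 sorted populations, and the deposited values are unnormalised counts of reads for each gene, made by the authors from reads demultiplexed with bcl2fastq, trimmed with Trimmomatic 0.36, aligned with STAR to mm10/GRCm38 and counted with featureCounts, per the submitters' processing notes. Strandedness and the treatment of reads with several matches were not given in the sources used here. Of 55341 rows, 26 whose gene symbols had turned into dates were left out (0.110% to 0.128% of the counts of a library), and the 55315 others were matched to GENCODE M21 for position and exon length. Promoter sequences came from RefSeq (GRCm38.p6).

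The counts were tested with the quasi-likelihood F test of edgeR 4.0.16 (R 4.3.3) on TMM factors of 0.919 to 1.08, in 1 model of the 4 groups over the 16677 genes left by filterByExpr. P-values were adjusted by Benjamini-Hochberg over all tested genes (threshold 0.05), and an SE is the log2 change divided by the root of F. Log2 CPM used a prior count of 2. The model was also run on counts simulated for the wild-type A5 comparison alone. The simulated spread followed a trend over genes, so that run cannot test calls under the real spread of each gene. Total counts and the range they give stand in the report, and intervals or floors cover counting error only. Each library pooled 2 or 3 mice, and nothing states whether libraries of a group came from separate experiments, so p-values measure the spread between these libraries.

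The labels number the libraries 1 to 3 in each group. With group means removed, the 18 pairs of equal number across groups correlated at r = 0.153 to 0.722 over 9071 genes (median 0.45). For this reason the number was taken to pair the libraries, and the blocked values are given beside the others. The 36 pairs of unequal number had a median of -0.24. Removal of group means makes this negative value follow from the positive one, so it is no separate sign of pairing. No 2 libraries of a group were alike within sampling noise.

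The members, stages and gene lists were chosen with earlier results of these data known, and no list was tested as a set. Named with values are 8 stage markers (Krt1, Krt10, Krtdap, Lor, Flg, Ivl, Tgm1 and Sprr1b) in each comparison and members that passed in either fit. From each other list of the pathway, up to 3 genes with the smallest p are named, while genes of the cell type lists are named only in part. Other members are named to account for all 41. A check of the genotype labels is not reported here. Alternatives were RLE factors, no or a stricter filter, DESeq2 1.42.0, fits of the compared groups alone, the block, other stage assignments, and omission of each library or number.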

Additional observations from a re-analysis of the deposited data

How the results depend on the processing

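The number of calls depended on the replicate block, the tool and single libraries, while the direction of the members called in the paired fit did not, Alox12b and the genes listed below excepted. For A5-positive against A5-negative cells in RORγt-deficient mice, 921 genes and 0 members passed without the block. The counts became 2937 and 16 with it, 3985 and 19 with the block in DESeq2, 2965 and 16 with the block and RLE factors, 1719 and 4 with DESeq2. No filter gave 3 members, and the stricter filter or the compared groups alone gave 1; omitting a library or number gave 135 to 2960 genes and 0 to 14 members. In wild type, 575 genes and 1 member became 2394 and 14 with the block, 3530 and 20 with the block in DESeq2, 2444 and 17 with the block and RLE factors, 1457 and 3 with DESeq2, 939 and 2 with no filter, and 344 and 0 with the compared groups alone. Omissions gave 38 to 2357 genes and 0 to 20 members. For RORγt-deficient against wild-type A5-positive cells, 1 gene and 0 members became 670 and 3 with the block, 2099 and 9 with the block in DESeq2, 716 and 3 with the block and RLE factors, 477 and 1 with DESeq2, 67 and 1 with no filter, and 1 to 705 and 0 to 5 with omissions. For A5-negative cells, 1 gene became 21 with DESeq2, 7 with no filter, 1 to 4 with omissions and 653 with the block in DESeq2, where 1 member passed. The interaction, with 0 genes, had 8 with DESeq2 and 25 with the block in DESeq2. The late median ranged over omissions from -1.1 to -0.056 for the wild-type fractions (-0.41 with all libraries), from -0.34 to 0.42 and from -0.58 to 0.077 for the genotypes in A5-positive (-0.06) and A5-negative cells (-0.10), and from -0.36 to 0.52 for the interaction (-0.14). The early minus late score of RORγt-deficient A5-positive library 3 was -0.089 with medians.

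Changes near 0 or of sparse genes turned their sign. In RORγt-deficient fractions, Lor changed by -0.0022 with RLE factors and by -0.0014 with DESeq2, and Flg by 0.17 with the block, 0.37 with the block in DESeq2 and 0.17 with the block and RLE factors (-0.25 without). Omissions there gave -0.22 to 0.35 for Lor, -0.94 to 0.95 for Flg, -0.31 to 0.31 for Tgm3, -0.39 to 0.063 for Tgm5, -0.58 to 0.33 for Calml3, -0.36 to 0.16 for Dmkn, -0.44 to 0.24 for Krtdap and -1.32 to 1.65 for Cnfn. They gave -0.67 to 0.078 for Sprr1b, -0.15 to 0.55 for Sprr2d, -0.31 to 0.59 for Sprr2h and -1.39 to 0.22 for Cdsn. In wild type, omissions gave -0.44 to 0.21 for Krt1, -1.75 to 1.53 for Flg, -0.38 to 0.25 for Tgm1, -0.44 to 0.16 for Tgm5, -0.63 to 0.073 for Casp14, -0.39 to 0.68 for Calml3, -0.015 to 0.25 for Dmkn and -0.11 to 0.30 for Krtdap. They gave -6.45 to 0.46 for Rptn, -0.36 to 0.92 for Cnfn, -0.77 to 0.070 for Sprr1b and -0.11 to 0.56 for Sprr2h. Between genotypes in A5-positive cells, Sprr1b (-0.0012) became 0.081 with the block, 0.021 with RLE factors or DESeq2, 0.037 with the stricter filter and 0.10 with the block in DESeq2 or with RLE factors. Omissions gave -0.22 to 0.51 for Sprr1b, -0.53 to 0.36 for Krt10, -0.86 to 0.035 for Ivl and -0.17 to 2.01 for Alox12b, and in A5-negative cells -0.28 to 0.15 for Krt10 and -0.35 to 0.39 for Sprr1b. For the interaction, Flg was 0.091 with the block in DESeq2, and Sprr1b (-0.09) was 0.038 with the block and 0.069 with the block in DESeq2 or with RLE factors. Its omissions gave -0.44 to 0.47 for Krt10, -0.46 to 0.10 for Lor, -0.44 to 0.49 for Ivl, -1.54 to 1.5 for Flg, -0.55 to 0.10 for Tgm1, -0.42 to 0.18 for Krtdap and -0.39 to 0.45 for Sprr1b. The cause was not tested in any of these. Depth limited the sparsest members: Flg and Rptn had SEs of 0.90 to 1.61 on the log2 scale in the A5 comparisons of the paired fit, and Flg2, Hrnr and Sprr3 were too sparse to be tested.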

Other observations

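Genes outside the module described the 2 sorted fractions further. Krt6a, a keratin of activated wound keratinocytes, had 1328, 724 and 1206 CPM in RORγt-deficient A5-positive libraries, against 231, 320 and 526 CPM in A5-negative ones. In wild type Krt6a had 2566, 1779 and 1469 CPM in A5-positive libraries, against 460, 559 and 489 CPM in A5-negative ones. No A5-positive library of a genotype overlapped its A5-negative libraries, and Krt6a rose by 1.59 ± 0.31 (adjusted p = 0.00685) and by 1.94 ± 0.31 (adjusted p = 0.00388) in the paired fit. Krt16 and Krt6b, keratins of the same state, rose in wild type by 1.11 ± 0.23 (adjusted p = 0.0114) and by 2.77 ± 0.63 (adjusted p = 0.0178), while Krt17 passed in neither genotype. In RORγt-deficient mice Krt16 changed by 0.33 ± 0.22 (adjusted p = 0.334) and Krt6b by 1.71 ± 0.65 (adjusted p = 0.091). Krt6a and Krt6b are near-identical copies, so reads may have been shared between them.

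Of 14 basal keratinocyte markers, 1 was higher and 2 were lower (Dst and Sox6) in A5-positive cells of RORγt-deficient mice in the paired fit, and 7 were higher and 0 lower in wild type; none passed without the block. Of all tested genes, 10.1% were higher and 7.54% lower in RORγt-deficient mice and 8.76% higher and 5.59% lower in wild type, which the counts below are read against too. Krt14 rose by 0.49 ± 0.13 (adjusted p = 0.0242) in RORγt-deficient mice and by 0.84 ± 0.13 (adjusted p = 0.00308) in wild type. Krt5 changed by 0.39 ± 0.13 (adjusted p = 0.0546) in RORγt-deficient mice and rose by 0.77 ± 0.13 (adjusted p = 0.00402) in wild type. Of 7 markers of the hair follicle infundibulum, 1 was lower in RORγt-deficient mice and 4 were lower in wild type. Krt79, a keratin of that duct, fell by 0.89 ± 0.18 (adjusted p = 0.0076) and by 0.95 ± 0.18 (adjusted p = 0.00786), and Gata6, a transcription factor there, fell by 0.67 ± 0.12 (adjusted p = 0.00676) in wild type. Of 15 fibroblast markers, all 15 passed as higher with A5 in RORγt-deficient mice and 12 in wild type, in the paired fit.

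Markers of other cell types were present at various levels. The 13 macrophage and monocyte markers summed to 1582 CPM in wild-type A5-negative library 1, to 630 and 644 CPM in RORγt-deficient A5-negative libraries 1 and 3, and to 93.1 to 317 CPM in the other libraries. The 11 Langerhans and dendritic cell markers, which include Epcam, the sorted surface protein, summed to 4664 CPM in that library and to 661 to 2072 CPM in the others. The 12 sebocyte markers summed to 513 to 1409 CPM in RORγt-deficient A5-positive, 693 to 1995 CPM in wild-type A5-positive, 793 to 1758 CPM in RORγt-deficient A5-negative and 1115 to 2368 CPM in wild-type A5-negative libraries. The 8 T cell markers reached at most 18.1 CPM, the 7 endothelial markers at most 40.9 CPM and the 7 melanocyte markers at most 23.6 CPM in a library. The 7 neutrophil markers summed to 168 to 534 CPM. Among these, Mmp9 was higher in A5-positive cells in the paired fit. It rose by 4.70 ± 0.83 (adjusted p = 0.00398) in RORγt-deficient mice and by 3.71 ± 0.81 (adjusted p = 0.0159) in wild type. Hcar2 fell in both genotypes and Csf3r in wild type. Of the 8 T cell markers 3 were tested, and Lck rose in RORγt-deficient mice. Thy1, which is also one of the fibroblast markers, rose in both genotypes in the paired fit alone. In edgeR without the block its adjusted p was 0.142 in RORγt-deficient mice and 0.297 in wild type.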
